A study of Mus musculus with 12 samples.

Results

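RAW264.7 cells exposed for 5 days to RANKL together with the supernatant of a Lactobacillus reuteri culture, a gut bacterium (treatment), were compared with cells exposed for 5 days to RANKL together with MEM-alpha medium (vehicle). The members are the libraries whose titles carry day 5, 2 treatment libraries and 2 vehicle libraries, 4 of the 12 libraries of the series. The other 8 libraries are the same arms at days 1 and 3. RAW264.7 is an immortalized macrophage-like line of Balb/c origin, kept in RPMI or MEM-alpha medium with fetal bovine serum. Every group carried RANKL, so neither arm shows cells without it, and a cell line stands here in place of primary osteoclast precursors. Nothing in the labels says that the 2 libraries of a group were grown apart, and the spread behind the p-values below may then be technical.

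RANKL binds its receptor RANK on cells of the macrophage lineage, and through NF-kB, AP-1 and NFATc1 it switches on the genes of bone resorption and of cell fusion, so that precursors become multinucleated osteoclasts. Macrophages also read microbial products through Toll-like and formyl peptide receptors, which induce chemokines, acute-phase proteins, prostaglandin synthesis and itaconate production. Inflammatory activation, low oxygen and lack of amino acids each raise a partly overlapping set of stress genes in these cells.

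Libraries with the same number were compared with each other, because the second library of both arms had a different make-up. Reads on nuclear protein-coding genes made up 87.6% and 48.8% of the treatment libraries 1 and 2, and 87.5% and 41.0% of the vehicle libraries 1 and 2. Mitochondrial genes took 3.64% and 25.8% of reads in the treatment libraries and 4.02% and 30.6% in the vehicle libraries, and the nuclear RNA Malat1 took 0.336% and 8.15% against 0.290% and 9.84%. Depth was 13851331 and 10724569 reads in the treatment libraries and 13812078 and 8995397 in the vehicle libraries. In the second pair the protein-coding share was thus higher under treatment, and there the median log2 difference of all 14715 tested genes was 0.20, while it was -0.09 in the first pair and 0.06 over both. After centring each library on its nuclear protein-coding genes the median over both pairs was -0.02, and all 48 genes described below as changed were still called. All 8 macrophage markers were present in the 4 libraries. Of the 8 osteoclast markers, Acp5 (tartrate-resistant acid phosphatase), Ctsk (cathepsin K) and Mmp9 were far higher in the second library of each arm, and Calcr and Oscar were below 1 normalized count in the first. Ocstamp and Dcstamp were also higher in the second library of each arm. Itgb3 was lower in the second treatment library, with 24.8 and 17.8 normalized counts, but not in vehicle, with 5.52 and 76.3. The 4 lymphocyte markers in the table stayed under 10 normalized counts in each library, and of the 5 fibroblast or osteoblast markers in the table only Runx2 exceeded that. Of the 2 epithelial markers in the table, Cdh1 had 355 and 200 normalized counts under treatment, against 467 and 235 in vehicle, and Epcam had none under treatment, against 0 and 15.5 in vehicle; their part in the results was not tested. In bulk RNA, fewer cells of a type and less RNA per cell cannot be told apart.

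At day 5, genes that rose under treatment included 7 inflammatory mediators, the hypoxia-linked and angiogenic factors Vegfa and Pgf and the amino acid transporters Slc7a11 and Slc6a9, and 9 H2A histone genes fell. With library number as a block, 48 of 14715 genes changed (limma, Benjamini-Hochberg adjusted p under 0.05), which is 0.326% of genes tested. Of these, 35 rose (0.238%), by 1.04 to 3.67 log2 units, and 13 fell (0.0883%), by 1.26 to 2.35. All values are on the scale of log2(normalized count + 8), which understates the change of genes with few counts. Each SE and p rests on a spread pooled over days 1, 3 and 5, and is not the spread of day 5 alone. The median gap between the pairs of a day was 0.124, 0.494 and 0.385 log2 units at days 1, 3 and 5. All 48 genes differed in the same direction in both pairs, whereas over all tested genes 26.8% were higher and 21.8% lower in both. The calls were made from these same pair differences, so neither this nor the separation of the arms below is separate support. Both treatment libraries lay above both vehicle libraries for 17 of the 35 rises, against 3.36% of all genes, and below both for 13 of the 13 falls, against 3.88%. Where 1 library was left out of the fit, its same-numbered partner in the other arm was left out too. That left 1 library per arm on the day concerned. The counts given next are of all genes called, and not all of these were among the 48. The calls rest on removing the difference between library numbers: without the block limma called 0 genes, with 62 genes at an unadjusted p under 0.05. They also rest on both pairs of day 5: the count was 9 without treatment library 1 or vehicle library 1 of day 5, and 0 without treatment library 2 or vehicle library 2. It was 118 without any 1 library of day 1 (treatment or vehicle, 1 or 2), 70 without either library 1 of day 3 and 40 without either library 2 of day 3.

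**Figure D1:**
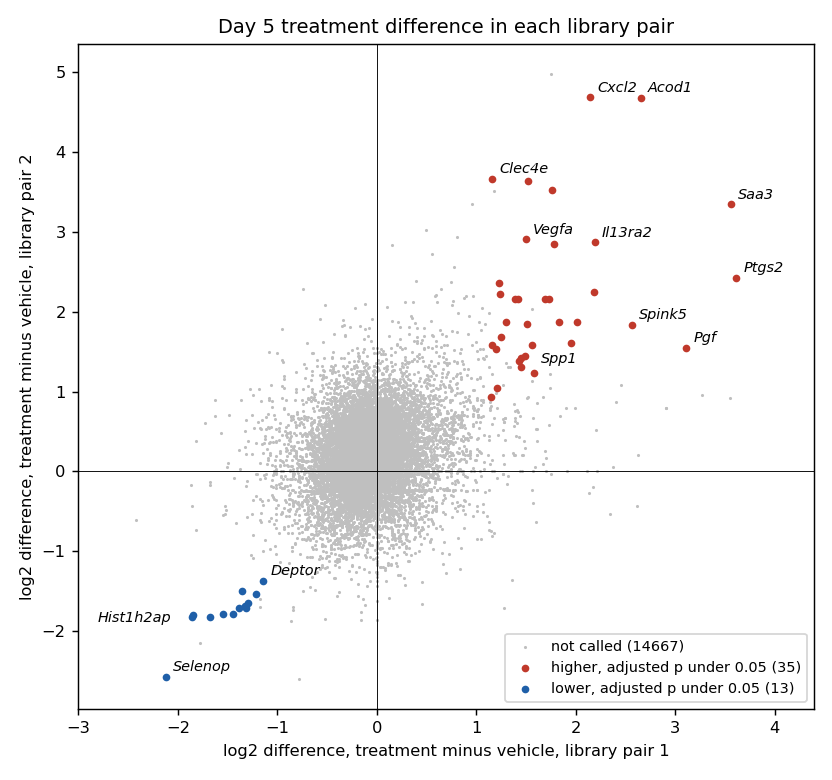
Each point is 1 of 14715 tested genes, with the day 5 log2 difference (treatment minus vehicle, log2(normalized count + 8)) of library pair 1 on the horizontal axis and of pair 2 on the vertical axis. The 35 rises (red) lie in the upper right quadrant, led by Acod1, Cxcl2, Saa3 and Ptgs2, and the 13 falls (blue) in the lower left.

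Acod1, the enzyme that makes the antimicrobial metabolite itaconate, showed the largest rise. It stood at 766 and 959 normalized counts in the treatment libraries, against 115 and 29.7 in the vehicle libraries. Both treated values exceeded both vehicle values, by 6.66-fold in pair 1 and 32.3-fold in pair 2, and the log2 difference with the offset of 8 was 3.67 (SE 0.38, limma adjusted p = 0.00426). The differences in the pairs, 2.65 and 4.68, lay further apart than those of days 1 and 3, which the pooled SE does not show. Saa3, an acute-phase serum amyloid A protein, had 151 and 87.7 normalized counts under treatment, against 5.52 and 1.41 in vehicle, and rose by 3.45 (SE 0.32, limma adjusted p = 0.00339). A value of 1.41 is a single read in vehicle library 2, so the size of such changes in pair 2 is loosely known. Cxcl2, a chemokine that attracts neutrophils, had 662 and 563 under treatment, against 144 and 14.1 in vehicle, without overlap, and rose by 3.42 (SE 0.56, limma adjusted p = 0.0379). Its differences were 2.14 in pair 1 and 4.69 in pair 2, also further apart than at days 1 and 3. Ptgs2, the inducible cyclooxygenase of prostaglandin synthesis, had 282 and 42.7 under treatment, against 15.6 and 1.41 in vehicle, again without overlap (log2 difference 3.02, SE 0.48, limma adjusted p = 0.0366). Ier3, an early response gene of stressed cells, had 153 and 104 under treatment, against 27.6 and 15.5 in vehicle (2.22, SE 0.27, limma adjusted p = 0.0116).

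Clec4e encodes Mincle, a lectin receptor for mycobacterial and fungal glycolipids. It had 9447 and 3536 normalized counts under treatment, against 4217 and 271 in vehicle, so that the treatment library 2 lay below the vehicle library 1 although both pairs were higher under treatment (1.16 and 3.67 log2 units). Slpi, a secreted inhibitor of leukocyte proteases, showed the same kind of overlap, with 406 and 127 under treatment against 136 and 2.83 in vehicle. These 7 genes were the rises among 23 tested inflammatory mediators, of which none fell and 16 did not pass. This list, like those below, was chosen with earlier results of these data known, so its shares are descriptive only. Over all genes tested 0.238% rose. The list median was 1.17 log2 units (1.18 in pair 1 and 1.49 in pair 2), beside 0.06 over all genes tested. In both pairs 19 of the 23 were higher, against 26.8% of all genes. At an unadjusted p under 0.05, 19 were higher, against 5.98% of all genes. Among those that did not pass, the macrophage elastase gene Mmp12 differed by 2.34 (limma adjusted p = 0.0759), the interleukin 1 receptor antagonist gene Il1rn by 1.10 (limma adjusted p = 0.0917) and Tnf by 1.16 (limma adjusted p = 0.134). Il1b, Il6 and Il10 were under the filter on low counts in every group, with at most 8.28 normalized counts at day 5.

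**Figure D2:**
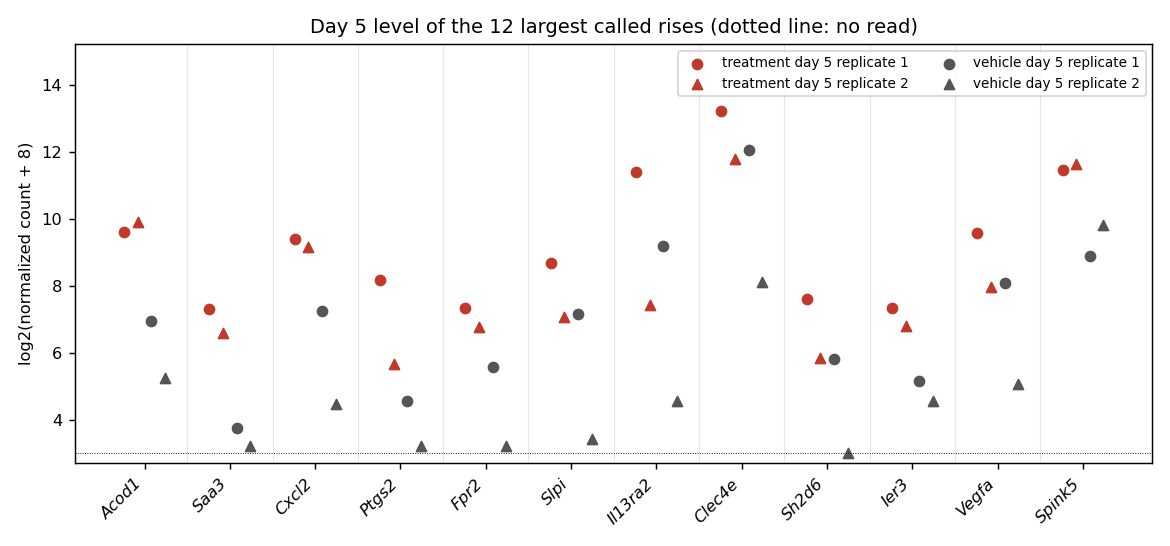
Levels in each day 5 library, as log2(normalized count + 8), of the 12 largest rises among those with at least 50 normalized counts in the mean of the higher arm; treatment libraries are red, vehicle libraries grey, circles library 1 and triangles library 2. Acod1, Saa3, Cxcl2, Ptgs2, Fpr2, Sh2d6, Ier3 and Spink5 show no overlap between arms, and Il13ra2, Clec4e, Slpi and Vegfa overlap across numbers although each pair is higher under treatment.

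Receptors and secreted factors outside that list were among the largest rises. Fpr2, a receptor for formylated bacterial peptides and for serum amyloid A, had 153 and 101 normalized counts under treatment, against 39.6 and 1.41 in vehicle (2.65 log2 units, SE 0.38, limma adjusted p = 0.0209). Il13ra2, a decoy receptor that binds interleukin 13, had 2673 and 165 under treatment, against 579 and 15.5 in vehicle (2.53, SE 0.24, limma adjusted p = 0.00339). It was 4.62-fold and 10.6-fold higher under treatment within the pairs, although library 2 lay far below library 1 in both arms. Spink5, a serine protease inhibitor, had 2778 and 3188 under treatment, against 463 and 887 in vehicle, without overlap (2.20, SE 0.25, limma adjusted p = 0.00913). Prokr1, a prokineticin receptor, had 72.5 and 62.8 under treatment, against 11.96 and 11.3 in vehicle, with differences of 2.01 and 1.88 log2 units in the pairs (limma adjusted p = 0.0113). Siglec1, a sialic acid-binding macrophage receptor, rose by 1.38 and Procr, the protein C receptor, by 1.95 (limma adjusted p = 0.0391 and 0.0366). Spp1, which encodes the secreted bone matrix protein osteopontin, was the most abundant gene that rose, 2.95-fold in pair 1 and 3.00-fold in pair 2 (1.57 log2 units, SE 0.20, limma adjusted p = 0.0128). Its normalized counts were 298080 and 31066 under treatment, against 100880 and 10356 in vehicle, so library 2 lay below library 1 in both arms and the ratio of the arms was nearly the same in both pairs.

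Genes that answer low oxygen through HIF factors were higher under treatment, with 4 of 20 tested members rising, none falling and 16 not passing. Over all genes tested 0.238% rose. Vegfa, the vascular endothelial growth factor, had 757 and 243 normalized counts under treatment, against 262 and 25.4 in vehicle (2.20 log2 units, SE 0.37, limma adjusted p = 0.0391). Pgf, placental growth factor, had 77.1 and 15.4 under treatment, against 1.84 and 0 in vehicle, where the gene had almost no reads (2.33, SE 0.35, limma adjusted p = 0.0262). Pgf passed the filter on low counts through this treatment group alone. Its place among the tested members, here and among the angiogenic factors below, thus depended on its being high there. Hilpda, a lipid droplet protein, had 299 and 135 under treatment, against 107 and 24.02 in vehicle (1.79, limma adjusted p = 0.0366). Ero1l, an oxidase that forms disulfide bonds in the endoplasmic reticulum, had 5916 and 613 under treatment, against 2653 and 199 in vehicle (1.37, SE 0.18, limma adjusted p = 0.0128). Hilpda and Pgf showed no overlap between arms, while Vegfa and Ero1l overlapped across numbers. The list median was 0.94 (0.88 in pair 1 and 0.92 in pair 2), and 16 of the 20 were higher in both pairs, against 26.8% of all genes. Adm, the vasodilator adrenomedullin, had 114 and 13.0 under treatment, against 4.60 and 2.83 in vehicle, and did not pass (limma adjusted p = 0.148). Car9, the hypoxia-induced carbonic anhydrase, stood lower under treatment in both pairs (-0.64 and -0.46) and did not pass (limma adjusted p = 0.558). Of 12 tested angiogenic and growth factors, Pgf and Vegfa rose, none fell, and the median was 0.71.

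No glycolysis gene passed, although 19 of 20 tested were higher in both pairs, against 26.8% of all genes. The median was 0.59, against 0.06 over all genes. The glucose transporter gene Slc2a1 had 2988 and 499 normalized counts under treatment, against 1409 and 182 in vehicle (1.25 log2 units, limma adjusted p = 0.0822). Hk2, hexokinase, had 1971 and 1005 under treatment, against 1056 and 541 in vehicle, with nearly equal differences of 0.89 and 0.88 in the pairs (limma adjusted p = 0.167). Of the 20 glycolysis genes, 11 were higher at an unadjusted p under 0.05, against 5.98% of all genes.

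Amino acid and integrated stress response genes were higher as well: 3 of 25 tested rose, against 0.238% of all genes, 0 fell and 22 missed the threshold. In both pairs 23 were higher, against 26.8% of all genes. Slc7a11, the cystine importer, had 1754 and 517 normalized counts under treatment, against 580 and 215 in vehicle (1.41 log2 units, SE 0.18, limma adjusted p = 0.0128). Slc6a9, a glycine transporter, had 164 and 81.8 under treatment, against 55.2 and 25.4 in vehicle, without overlap (1.44, SE 0.22, limma adjusted p = 0.0366). Stc2, a secreted glycoprotein induced by stress of the endoplasmic reticulum, had 373 and 30.8 under treatment, against 126 and 2.83 in vehicle (1.68, SE 0.28, limma adjusted p = 0.0410). The list median was 0.85 (0.51 in pair 1 and 1.16 in pair 2). At an unadjusted p under 0.05, 20 of 25 were higher, against 5.98% of all genes. The mitochondrial folate enzyme gene Aldh1l2 differed by 1.77 (limma adjusted p = 0.0754) and Atf4, the transcription factor at the centre of this response, by 0.63 (limma adjusted p = 0.194), neither passing. None of 21 chaperone and unfolded protein response genes passed, with a median of 0.53. In both pairs 20 of them were higher, against 26.8% of all genes. Hspa5, the main chaperone of the endoplasmic reticulum, had 47778 and 7791 under treatment, against 28685 and 4203 in vehicle (0.81, limma adjusted p = 0.117). None of 20 aminoacyl-tRNA synthetase genes passed (median 0.43).

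**Figure D3:**
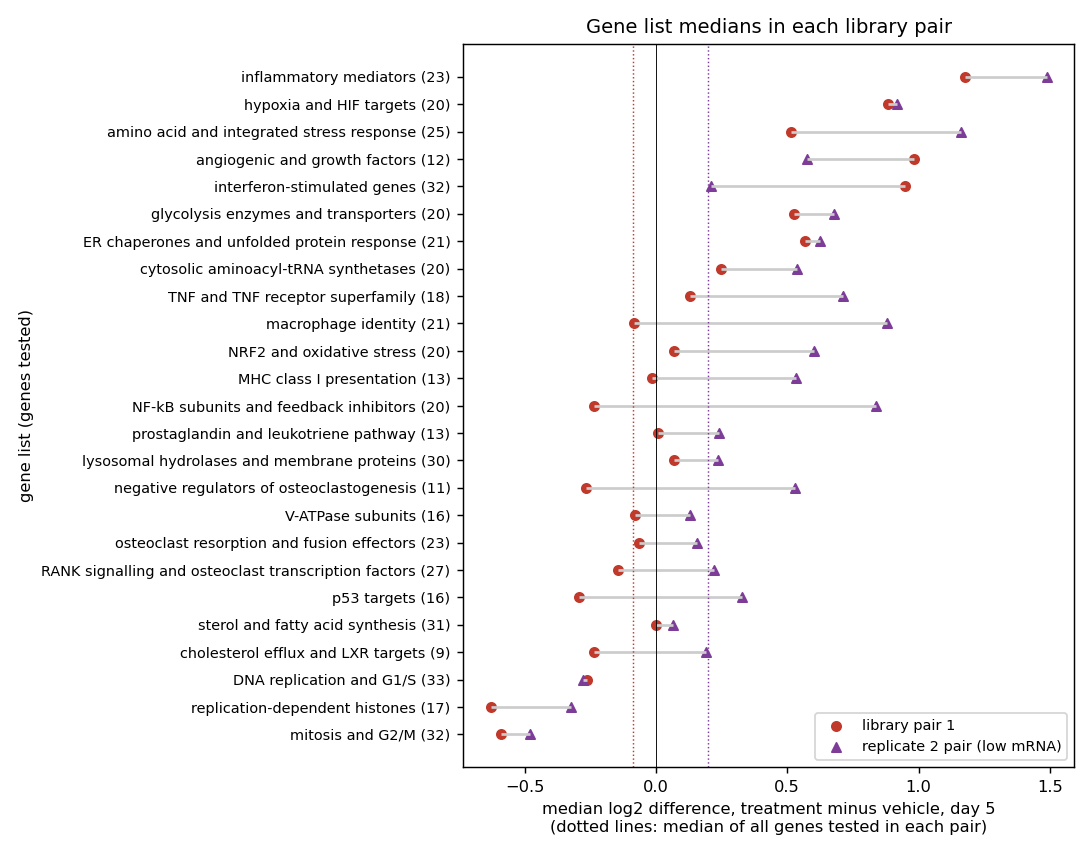
Median day 5 log2 difference (treatment minus vehicle) of each gene list in library pair 1 (red circles) and in pair 2, the low-mRNA pair (purple triangles), with the number of tested genes in brackets and the all-gene medians of -0.09 and 0.20 as dotted lines. Inflammatory, hypoxia and stress response lists lie right of both dotted lines in both pairs, mitosis and histone lists lie left of them, and the interferon list is close to the dotted line in pair 2 alone.

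Promoters are shown, 250 bases before to 50 after the start on build GRCm38.p6, for rises of the inflammatory, hypoxia and stress lists for which RefSeq lists a single start, because these genes were higher together. Of such rises, the 2 with the smallest p in each list were taken, and in the hypoxia list Ero1l was the only one. No member of the osteoclast or mitosis lists passed. Pgf, Hilpda, Vegfa and Slc6a9 are not among those printed. Motifs were searched on both strands as ACGTG (hypoxia response core), TGATGNAA (an ATF4-type element, CARE), GGGA and CC with 4 free letters between them (NF-kB), TTTGAA (CHR), TGACNNNGC (antioxidant response element) and TGANTCA (AP-1), and capitals mark the matches, a match on the opposite strand appearing as its reverse complement. The intervals are chr7:46715627-46715926 (minus strand) for Saa3, chr14:103046762-103047061 (plus) for Acod1, chr14:45318523-45318822 (minus) for Ero1l, named Ero1a in RefSeq, chr3:50443564-50443863 (minus) for Slc7a11 and chr11:31370012-31370311 (minus) for Stc2.
Saa3: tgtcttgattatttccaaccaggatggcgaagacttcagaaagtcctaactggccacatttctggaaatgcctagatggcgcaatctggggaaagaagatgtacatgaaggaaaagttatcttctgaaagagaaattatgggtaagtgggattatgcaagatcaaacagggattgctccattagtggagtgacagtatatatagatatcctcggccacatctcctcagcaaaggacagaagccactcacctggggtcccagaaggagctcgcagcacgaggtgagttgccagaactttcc
Acod1: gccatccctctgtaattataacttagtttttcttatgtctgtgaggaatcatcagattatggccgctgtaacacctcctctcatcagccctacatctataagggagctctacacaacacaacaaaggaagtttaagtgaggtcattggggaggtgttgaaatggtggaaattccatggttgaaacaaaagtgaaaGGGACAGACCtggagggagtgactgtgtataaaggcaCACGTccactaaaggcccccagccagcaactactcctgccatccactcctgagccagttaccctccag
Ero1l: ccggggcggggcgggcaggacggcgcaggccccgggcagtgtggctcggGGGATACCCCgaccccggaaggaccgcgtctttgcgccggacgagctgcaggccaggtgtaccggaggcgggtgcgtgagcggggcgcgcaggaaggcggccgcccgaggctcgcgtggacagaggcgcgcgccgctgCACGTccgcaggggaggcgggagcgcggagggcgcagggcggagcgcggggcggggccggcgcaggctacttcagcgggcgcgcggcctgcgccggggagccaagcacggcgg
Slc7a11: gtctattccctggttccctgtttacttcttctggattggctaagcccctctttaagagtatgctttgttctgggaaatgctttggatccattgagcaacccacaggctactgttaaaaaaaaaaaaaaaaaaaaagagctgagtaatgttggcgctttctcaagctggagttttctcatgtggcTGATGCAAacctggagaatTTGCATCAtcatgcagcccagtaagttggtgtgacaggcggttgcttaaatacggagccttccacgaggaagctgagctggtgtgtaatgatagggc
Stc2: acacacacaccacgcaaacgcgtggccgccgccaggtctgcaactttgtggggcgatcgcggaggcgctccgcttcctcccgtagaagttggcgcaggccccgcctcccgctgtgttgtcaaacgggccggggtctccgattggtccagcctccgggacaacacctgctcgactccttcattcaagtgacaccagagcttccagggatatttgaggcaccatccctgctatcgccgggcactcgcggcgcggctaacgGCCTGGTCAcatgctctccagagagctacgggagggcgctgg
The Acod1 window held 1 NF-kB match and 1 hypoxia core, and so did the Ero1l window. The Slc7a11 window held 2 CARE matches, facing each other, and the Stc2 window held 1 antioxidant element. The Saa3 window held no match. Of 32851 RefSeq promoters of the same length, 20.73% held the NF-kB letters, 19.62% the hypoxia core, 12.39% the antioxidant element and 3.97% the CARE letters, while TTTGAA was found in 17.89% and TGANTCA in 7.81%. A match describes letters in a window and is no measure of binding. Of the 48 changed genes, 38 had a promoter in the table.

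The other rises were of mixed function. Ets2, a transcription factor downstream of RAS signalling, rose by 1.93 log2 units, Qpct, a glutaminyl cyclase that modifies chemokines, by 1.85, and Plk2, a stress-induced polo-like kinase that stands on the p53 list, by 1.73. Marcksl1, a MARCKS-related protein that binds actin, rose by 1.77, Acap1, an ARF GTPase activator, by 1.78, Ccnd2, cyclin D2, by 1.47, and Igf2bp2, an RNA-binding protein, by 1.47. Slfn4, a Schlafen family gene, rose by 1.13 and Odc1, which makes the polyamine putrescine, by 1.04. The limma adjusted p of these 9 genes lay between 0.0117 and 0.0375. Sh2d6 rose by 2.32 log2 units and had no read in vehicle library 2 (limma adjusted p = 0.019996). Mir7678 (1.80) lies within Slpi, and Gm17114 (1.59) overlaps Slc6a9 and Ccdc24 (1.37), so reads of these genes may be shared and the 3 calls are not independent of their neighbours.

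The falls were dominated by H2A histone genes, the family that packages DNA in every nucleosome and whose messages are normally made during DNA replication and end in a stem-loop without a poly(A) tail. Of 13 genes that fell, 9 encode H2A. Hist1h2ap had 332 and 360 normalized counts under treatment, against 1225 and 1297 in vehicle, with no overlap and nearly the same ratio in both pairs (-1.84 log2 units, SE 0.18, limma adjusted p = 0.00339). Hist1h2ao had 328 and 360 under treatment, against 1201 and 1272 in vehicle (-1.82, SE 0.18, limma adjusted p = 0.00339). Hist1h2ag had 68.8 and 155 under treatment, against 237 and 569 in vehicle (-1.75, SE 0.20, limma adjusted p = 0.00913). Hist1h2ac had 17.4 and 61.6 under treatment, against 66.3 and 233 in vehicle (-1.67, SE 0.24, limma adjusted p = 0.0217). Both vehicle libraries exceeded both treatment libraries for each of these 4. The Hist1h2ag and Hist1h2ac levels also differed between library numbers, in both arms. The other falls of the family were Hist1h2aj (-1.62, a pseudogene in the reference annotation), Hist1h2ad (-1.55), Hist1h2ah (-1.51), Hist1h2ae (-1.50) and Hist1h2an (-1.47).

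These counts are not independent of each other, because the genes are near copies. Over the coding sequence the 7 protein-coding members that fell and could be compared shared 98% to 100% of bases in 21 pairs, and Hist1h2ao and Hist1h2ap were identical over 393 bases. The first 90 coding bases of 4 members that fell, all on chromosome 13, and of Hist2h2aa1 on chromosome 3, which did not pass, show how little separates them, with capitals at the 17 positions where the 5 differ.
Hist1h2ap: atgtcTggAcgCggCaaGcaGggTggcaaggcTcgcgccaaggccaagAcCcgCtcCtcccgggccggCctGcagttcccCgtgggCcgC
Hist1h2ao: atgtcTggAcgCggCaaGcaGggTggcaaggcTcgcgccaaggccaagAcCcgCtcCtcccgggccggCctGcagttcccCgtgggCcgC
Hist1h2ag: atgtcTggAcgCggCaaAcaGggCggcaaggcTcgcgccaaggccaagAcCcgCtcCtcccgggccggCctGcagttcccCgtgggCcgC
Hist1h2ac: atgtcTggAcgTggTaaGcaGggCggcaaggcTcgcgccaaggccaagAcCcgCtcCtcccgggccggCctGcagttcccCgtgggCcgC
Hist2h2aa1: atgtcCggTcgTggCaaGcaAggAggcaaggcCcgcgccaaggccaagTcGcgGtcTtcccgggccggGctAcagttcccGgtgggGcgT
Hist2h2aa1, which shared 91.3% of coding bases with Hist1h2ao, had 52.3 and 166 normalized counts under treatment, against 55.2 and 321 in vehicle (-0.49, limma adjusted p = 0.730). How the authors' counting divided reads among the copies is not given in the sources used here, so the 9 calls cannot be read as 9 separate measurements. Summed over 19 H2A genes, the libraries held 1026 and 1645 normalized counts under treatment, against 3278 and 5095 in vehicle.

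No other histone type had a member that passed. Of the tested genes, 17 encode H2A (9 fell, against 0.0883% of all genes, median -1.47). A further 7 encode H2B (median -0.03), 2 H3 (-0.27), 4 H4 (-0.19) and 5 linker histone H1 (-0.36). The H2B sum was 207 and 299 normalized counts under treatment, against 335 and 358 in vehicle, lower under treatment in both pairs by less than the H2A sum was. The difference between H2A and the other types was not tested. Hist1h2be, an H2B gene, differed by -1.05 (limma adjusted p = 0.195).

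**Figure D4:**
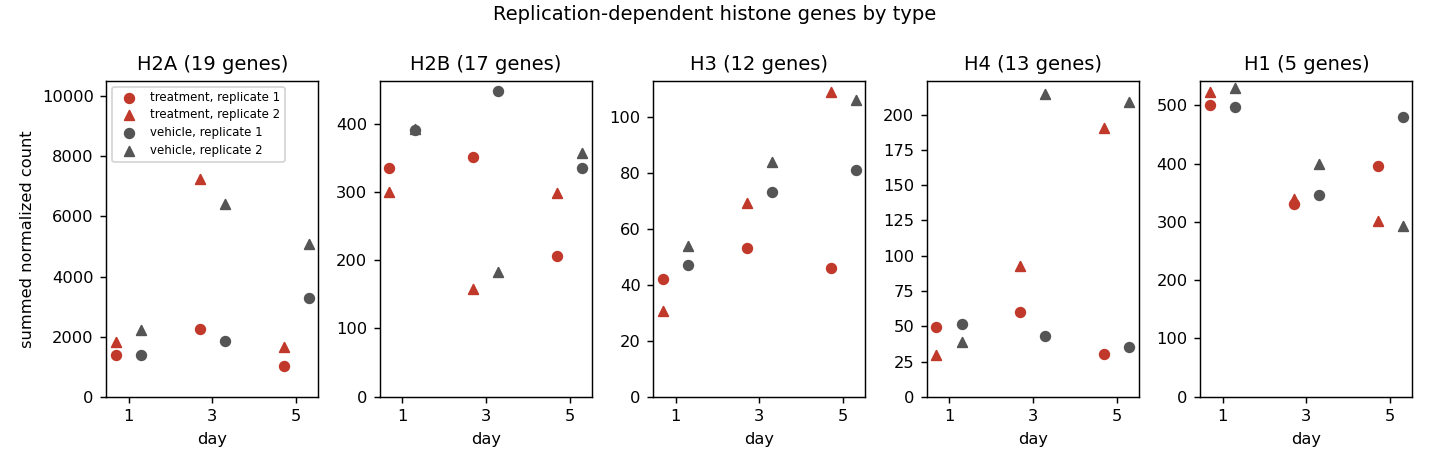
Summed normalized counts of the replication-dependent histone genes of each type in each library by day, treatment red and left of vehicle grey, circles library 1 and triangles library 2. The H2A sums at day 5 are 1026 and 1645 under treatment and 3278 and 5095 in vehicle, whereas at day 3 the arms lie close within each number.

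Selenop, which encodes the selenium carrier selenoprotein P, fell furthest. It had 12.9 and 5.93 normalized counts under treatment, against 82.8 and 74.9 in vehicle, without overlap (-2.35 log2 units, SE 0.28, limma adjusted p = 0.00948). Selenop passed the filter on low counts through this vehicle group alone, so its being tested depended on its being high there. Deptor, an inhibitor of the kinase mTOR, had 110 and 207 under treatment, against 252 and 550 in vehicle (-1.26, limma adjusted p = 0.0366). Cenpm, a protein of the inner kinetochore, had 34.0 and 11.9 under treatment, against 89.3 and 49.5 in vehicle (-1.37, limma adjusted p = 0.0391). Zfyve28 had 30.3 and 41.5 under treatment, against 90.2 and 131 in vehicle (-1.43, limma adjusted p = 0.0383). All 4 genes were below both vehicle libraries in both treatment libraries.

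Cell cycle lists had lower medians under treatment, without a single call. Of 32 tested mitosis and G2/M genes, none passed. In both pairs 26 were lower and none was higher, against 21.8% and 26.8% of all genes. At an unadjusted p under 0.05, 19 were lower, against 2.96% of all genes. The median was -0.53 (-0.59 in pair 1 and -0.48 in pair 2). Cenpf, a kinetochore protein of dividing cells, had 1416 and 379 normalized counts under treatment, against 2267 and 810 in vehicle (-0.88, limma adjusted p = 0.0870). Prc1, which bundles the microtubules of the central spindle, had 1041 and 114 under treatment, against 1889 and 201 in vehicle (-0.82, limma adjusted p = 0.102). In the DNA replication and G1/S list none of 33 passed and the median was -0.27. Of the 33, 20 were lower in both pairs, against 21.8% of all genes, 3 were higher in both and 10 went opposite ways. At an unadjusted p under 0.05, 6 were lower, against 2.96% of all genes, and 1 was higher. The latter was Pcna, with differences of 0.26 and 0.69 in the pairs. Tyms, thymidylate synthase, differed by -0.75 (limma adjusted p = 0.191).

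On the scale with the offset of 8, interferon-stimulated genes were higher mainly in the first pair. None of 32 tested passed, the median was 0.68, and it was 0.95 in pair 1 but 0.21 in pair 2, where the median of all genes was 0.20. Of the 32, 24 were higher in both pairs, against 26.8% of all genes. At an unadjusted p under 0.05, 17 were higher, against 5.98% of all genes. Rsad2, the antiviral enzyme viperin, had 82.6 and 8.30 normalized counts under treatment, against 14.7 and 1.41 in vehicle (limma adjusted p = 0.118). Without the offset its ratio was 5.61-fold in pair 1 and 5.89-fold in pair 2. The offset understates differences at the low counts of library 2, and its part in the split was not tested. Bst2, the virus-tethering protein, had 1020 and 694 under treatment, against 567 and 349 in vehicle, with differences of 0.84 and 0.98 in the pairs (limma adjusted p = 0.108). The NF-kB subunits and their feedback inhibitors had opposite medians, -0.24 in pair 1 and 0.84 in pair 2, and none of 20 passed. Macrophage identity genes did so too (-0.08 and 0.88, none of 21 passing).

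No tested member of the osteoclast lists passed in either direction. Ctsk had 281 and 7164 normalized counts under treatment, against 299 and 6680 in vehicle, so that the arms lay close in each pair while the library numbers lay far apart (0.01 log2 units, SE 0.28, limma adjusted p = 0.998). Its direction was lower under treatment by quantile normalization and by centring on protein-coding genes. Acp5 had 21.1 and 771 under treatment, against 35.9 and 1231 in vehicle (-0.63, SE 0.25, limma adjusted p = 0.482). Mmp9 had 798 and 4764 under treatment, against 663 and 2815 in vehicle (0.51, SE 0.31, limma adjusted p = 0.700). Ocstamp, a membrane protein of osteoclast fusion, had 3.67 and 212 under treatment, against 54.3 and 329 in vehicle, with differences of -2.42 in pair 1 and -0.62 in pair 2 (-1.52, SE 0.39, limma adjusted p = 0.183). Dcstamp, its partner in fusion, had 799 and 1689 under treatment, against 836 and 1516 in vehicle (0.05, SE 0.24, limma adjusted p = 0.975), and it too stood lower under both of those scalings. Car2, the carbonic anhydrase that supplies acid for resorption, had the smallest p of the list, with 131 and 149 under treatment, against 43.3 and 89.0 in vehicle, without overlap (1.07, SE 0.24, limma adjusted p = 0.134). Over 23 tested resorption and fusion genes the median was 0.05, beside 0.06 for all genes. Of the 23, 9 were higher and 7 lower in both pairs, beside 26.8% and 21.8% of all genes.

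Upstream of these genes, Tnfrsf11a, the RANK receptor, had 1119 and 392.3 normalized counts under treatment, against 1889 and 531 in vehicle (-0.59, SE 0.17, limma adjusted p = 0.259). Nfatc1, the master transcription factor of osteoclast formation, had 648 and 505 under treatment, against 800 and 831 in vehicle (-0.51, SE 0.20, limma adjusted p = 0.477). Both were lower under treatment in both pairs without passing. Irf8, a repressor of osteoclast formation, had 1186 and 609 under treatment, against 847 and 454 in vehicle (0.45, SE 0.20, limma adjusted p = 0.550). Over 27 tested genes of RANK signalling and osteoclast transcription the median was 0.03. Of the 27, 8 were higher and 8 lower in both pairs, near the 26.8% and 21.8% of all genes. A p that misses the threshold does not show that these genes were alike in the arms.

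None of the remaining lists held more than 1 call. Plk2 was the rise among 16 p53 targets and Ptgs2 the rise among 13 genes of prostaglandin and leukotriene synthesis. No member passed among 20 NRF2 and oxidative stress genes (median 0.33), 18 TNF and TNF receptor family genes (0.39), 30 lysosomal genes (0.12), 16 V-ATPase subunits (0.05), 31 sterol and fatty acid synthesis genes (-0.01), 13 MHC class I genes (0.22), 4 MHC class II genes (-0.26), 9 cholesterol efflux genes (-0.03) and 11 negative regulators of osteoclast formation (0.10). Txnip, the thioredoxin-binding protein of the NRF2 and oxidative stress list, had 2619 and 524 normalized counts under treatment, against 4686 and 1770 in vehicle (-1.29, limma adjusted p = 0.118). Of 3 tested receptors for fatty acids and metabolites, Hcar2, a receptor for niacin and ketone bodies, had 105 and 56.9 under treatment, against 25.8 and 19.8 in vehicle, without overlap (1.48, limma adjusted p = 0.107). Gpr84, a receptor for medium-chain fatty acids, differed by 1.31 (limma adjusted p = 0.0727). Ffar4, the long-chain fatty acid receptor, was under the filter, with 0 and 8.30 under treatment, against 3.68 and 7.06 in vehicle.

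The treatment effect of day 5 was set against those of days 1 and 3, which were measured in other libraries. All 35 rises were also higher in both pairs at day 3, against 37.5% of all genes, and 27 of 35 were at day 1, against 27.7%. The median difference of the 35 at day 3 was 1.32 log2 units, but the count includes negligible differences. In pair 1 of day 3, Hilpda differed by 0.0021 and Pgf by 0.00036, with 1.57 normalized counts under treatment against 1.56 in vehicle. By the same test 6 genes rose at day 1 (0.0408% of genes tested) and 7 at day 3 (0.0476%). Of the rises of day 5, 3 were called at day 1 and 5 at day 3. Some rises were small at day 1: Pgf differed by 0.14, Ier3 by 0.12, Vegfa by 0.19 and Stc2 by -0.21 log2 units there, without passing, and their differences between days 5 and 1 did not pass. Of the 13 falls, 9 of them H2A genes, 3 were lower in both pairs at day 3, against 10.8% of all genes, and 5 at day 1, against 42.4%.

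The effect of day 5 differed from that of day 3 for 2 genes (0.0136% of genes tested, with 542, or 3.68%, at an unadjusted p under 0.05), Hist1h2ap (-2.10 log2 units) and Hist1h2ao (-2.09, limma adjusted p = 0.0491 for both). At day 3 Hist1h2ap had 707 and 2143 normalized counts under treatment, against 526 and 2003 in vehicle, which puts the treated libraries slightly above their partners (0.26). At day 1 it had 341 and 567 under treatment, against 369 and 671 in vehicle (-0.18). Both calls were lost without any 1 library of days 3 or 5, and 2 identical coding sequences are in effect 1 observation. No gene passed for a difference between the effects of days 5 and 1 (0.0%), with 407 (2.77%) at an unadjusted p under 0.05, and limma-voom on recovered reads also called 0.

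**Figure D5:**
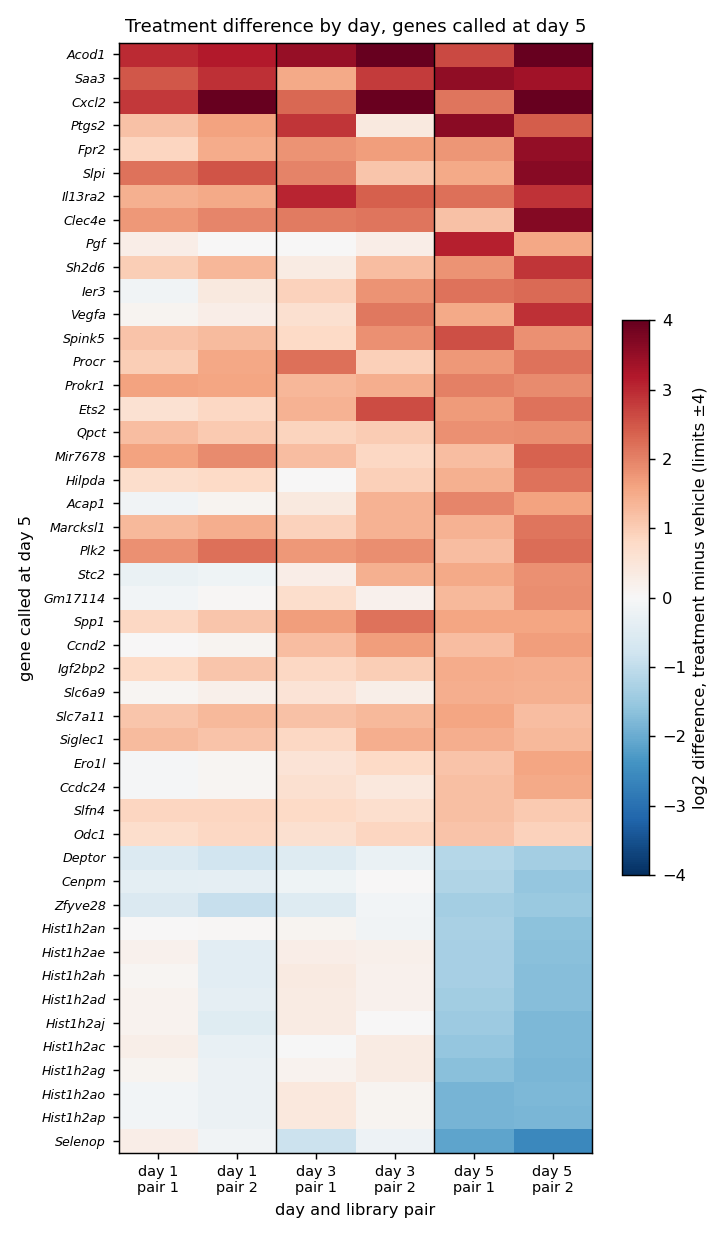
Log2 difference (treatment minus vehicle) of the genes changed at day 5, 1 per line and all but 1 of the 48, in the library pairs of days 1, 3 and 5, red for higher and blue for lower under treatment. The rises are red or near white at day 3 in both pairs, while the H2A genes are near white at days 1 and 3 and blue at day 5.

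Over all genes tested, the agreement between pairs was limited. Across 14715 genes the differences of pairs 1 and 2 correlated with r = 0.253 at day 5, which is a description across genes and not over replicates, and 48.6% of genes had the same sign in both. With at least 1 log2 unit in each pair, 63 genes were higher in both, 21 were lower in both and 7 went opposite ways. Slc5a3, a sodium-coupled myo-inositol transporter and 1 of the 7, was chosen here after its values were seen and had 901 and 328 normalized counts under treatment, against 346 and 855 in vehicle, differences of 1.36 and -1.36. Whether the low mRNA content of the second libraries had a part in such splits was not tested.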

How the data were processed

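Gene expression was measured by RNA sequencing of total RNA in 12 libraries, 2 for each of 6 groups, grouped by their titles. TopHat2, SAMtools, DESeq2 and build mm9 are named, per the submitters' processing notes; their versions, the counting step and its strand setting are not stated there. The authors' deposited values are log2 of a normalized count plus 8 for each gene, with a lowest value of 3, and the normalized totals are equal in every library. After the offset was removed, 100% of positive values were whole multiples of 1 read within 0.02 reads. The table held 23764 identifiers after 993 repeated rows were dropped. Replicates of day 5 differed by more than sampling noise (chi-square per degree of freedom 495 for treatment and 579 for vehicle).

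A limma 3.58.1 model (R 4.3.3, trended prior, 3 residual degrees of freedom) was fitted to the log2 values of all 12 libraries with library number within day as a block and 1 treatment effect per day. The block follows the pairing seen in the data: deviations of same-numbered libraries from their group means correlated with r = 0.12, 0.935 and 0.923 at days 1, 3 and 5. Genes with a mean of at least 10 normalized counts in at least 1 group were tested, and p-values were adjusted by Benjamini-Hochberg over 14715 genes. Named genes were drawn from the 12 largest rises and 12 largest falls with at least 50 normalized counts in the higher arm, up to 4 members of each list at an unadjusted p under 0.05, the differences between days, 10 genes named in any case, and the remaining called genes, added after their values were seen. Other list members are named as examples, also after their values were seen. The members, lists and tests were chosen with earlier results of these data known. Of the called genes, 1 is not reported here. Intervals of build mm9 were not used. Promoters are from RefSeq, and the H2A coding sequences are the longest open reading frames of GENCODE transcripts. The model was tested on simulated data. Python 3.11.15, pandas 2.3.3, numpy 2.4.6 and matplotlib 3.10.9 made the tables and figures.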

Additional observations from a re-analysis of the deposited data

Results flagged for a closer look

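The treatment effect on Hist1h2ap at day 5 differed from that at day 3 by -2.10 log2 units, and that on Hist1h2ao by -2.09 (limma adjusted p = 0.0491 for both). Both genes were singled out because their effects under the same contrast differ between 2 days by the test of that difference. Their coding sequences are identical, so the pair counts as 1 observation. No group had enough libraries to ask whether a single one stood apart from the rest of its group.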

How the results depend on the processing

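Of the day 5 genes changed, all 48 (35 rises, 13 falls) kept their direction under each alternative that gave them a value. The direction was fixed in advance where libraries or the block were left out, or the filter or offset was changed. Each day has its own effect, and both pairs of day 5 already shared the direction. The number of calls did change. No replicate block gave 0 calls (0 and 0, with 62 genes at an unadjusted p under 0.05) and no filter also 0 (0 and 0, with 1702). Only the 4 libraries of day 5, with the block, gave 231 (196 and 35), and leaving out the 4 low-mRNA libraries, without the block, 1103 (477 and 626), with 45 of the 48 still called. An offset of 1 gave 17 (13 and 4) and of 0.5 gave 14 (11 and 3). Quantile normalization gave 177 (122 and 55) and centring on nuclear protein-coding genes 230 (165 and 65), each still calling all 48. A filter of 50 gave 40 and limma-voom 42, of which 40 and 30 were shared. Leaving out 1 library also took out its same-numbered partner in the other arm, which left 1 library per arm on that day. With 1 library left out the calls ranged from 0 to 118, the rises from 0 to 97 and the falls from 0 to 21. For the difference between days 5 and 3, 2 genes became 0 without the replicate block, with an offset of 1 or 0.5, without a filter, with a filter of 50 and after centring. Both were also lost with any 1 library of days 3 or 5 left out. For days 5 and 1, 0 genes became 162 without the low-mRNA libraries and stayed at 0 to 0 with 1 library left out. Direction reversed for the Dcstamp log2 difference day 5 (0.05), at -0.063 without the low-mRNA libraries, -0.00765 by quantile normalization and -0.030 after centring, for Ctsk (0.01), at -0.089, -0.031 and -0.069, and for Malat1 (-0.03), at 0.21 without the low-mRNA libraries. With 1 library left out the ranges were -0.063 to 0.15 for Dcstamp, -0.089 to 0.10 for Ctsk and -0.27 to 0.21 for Malat1. The cause was not tested. Where vehicle library 2 held few reads, as for Saa3, Ptgs2 and Fpr2, depth limits how well the size of a rise is known.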
